A study of Mus musculus with 8 samples.

Results

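Blood vessel endothelium was followed in first molar enamel organs through 10 genes that mark it: Pecam1, Cdh5, Kdr, Tek, Flt1, Tie1, Emcn, Eng, Plvap and Esam. They were taken by name from a table of read counts for 54532 genes, and all 10 had enough counts to be tested, among 16440 tested genes. The enamel organs came from wt C57BL/6 pups without treatment at postnatal day 5 (P5, secretory stage) and day 12 (P12, maturation stage), with 4 RNA-seq libraries at each age. Each library was a pool of enamel organs from 5 pups. The labels call the cells epithelially derived, but the molars were homogenized after the pulp was cleared away, with no sorting of cells named. Genes of vessels, mesenchyme, odontoblasts and blood were all detected. In such bulk samples, fewer cells of a type and less RNA per cell cannot be told apart. The position of a vessel, within the enamel organ or in tissue left around it, was not measured.

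The enamel organ has no vessels within its epithelium. Capillaries of the dental follicle lie close to the secretory stage enamel organ, and at the maturation stage they run between the ridges of the papillary layer, the folded epithelium behind the ameloblasts, where they serve cells that move large amounts of calcium, phosphate and bicarbonate. Endothelial cells are held together by VE-cadherin (Cdh5), PECAM-1 (Pecam1) and ESAM (Esam). They respond to VEGF through the receptor kinases VEGFR1 (Flt1) and VEGFR2 (Kdr), to angiopoietins through TIE2 (Tek) with its relative TIE1 (Tie1), and to BMP and TGF-beta ligands with the co-receptor endoglin (Eng). Endomucin (Emcn) is a mucin-like surface protein of capillaries and veins, and PLVAP (Plvap) builds the diaphragms of fenestrated capillaries.

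The libraries held between 16574548 and 22013456 counted reads. Values are given as normalized counts, which are counts divided by the TMM-scaled library size and set to the mean scaled size. P5 replicate 5 and P12 replicate 4 stood apart from the other libraries of their age: the chi-square per degree of freedom was between 19.17 and 20.96 in the pairs with P5 replicate 5 and between 5.15 and 6.39 in the other P5 pairs, and it was between 35.8 and 86.5 in the pairs with P12 replicate 4 and between 9.67 and 21.7 in the other P12 pairs. Counts of calls over gene lists are therefore also given with both left out.

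All 10 endothelial genes were higher at P12 than at P5, by 1.52-fold (Cdh5) to 2.63-fold (Plvap). Together they took 0.0194% to 0.0249% of the reads at P5 and 0.0539% to 0.0611% at P12. In edgeR's quasi-likelihood test each of the 10 passed an adjusted p of 0.05. Of all tested genes, 28.8% passed as higher, 28.4% as lower and 57.2% in either direction, and of the 5200 tested genes whose mean count lay within the range of the 10, 31.8% passed as higher. With a log2 fold change of at least 1 as a further condition, 6 of the 10 (Pecam1, Kdr, Flt1, Eng, Plvap and Esam) passed as higher and none as lower, against 11.3% and 10.2% of all tested genes. The median log2 fold change of the 10 was 1.05, against 0.01 over all tested genes. For each of the 10, the lowest P12 library was above the highest P5 library, which held for 26.0% of all tested genes and for 29.0% of those within that range (exact permutation test of each gene, two-sided p = 0.0286, as small as groups of 4 can give). All 10 were also called without P5 replicate 5 and P12 replicate 4. Of their exonic bases, none is shared with another gene in GENCODE M21, except for 1.51% of those of Eng, which lie in exons of the antisense gene Fpgs.

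**Figure D1:**
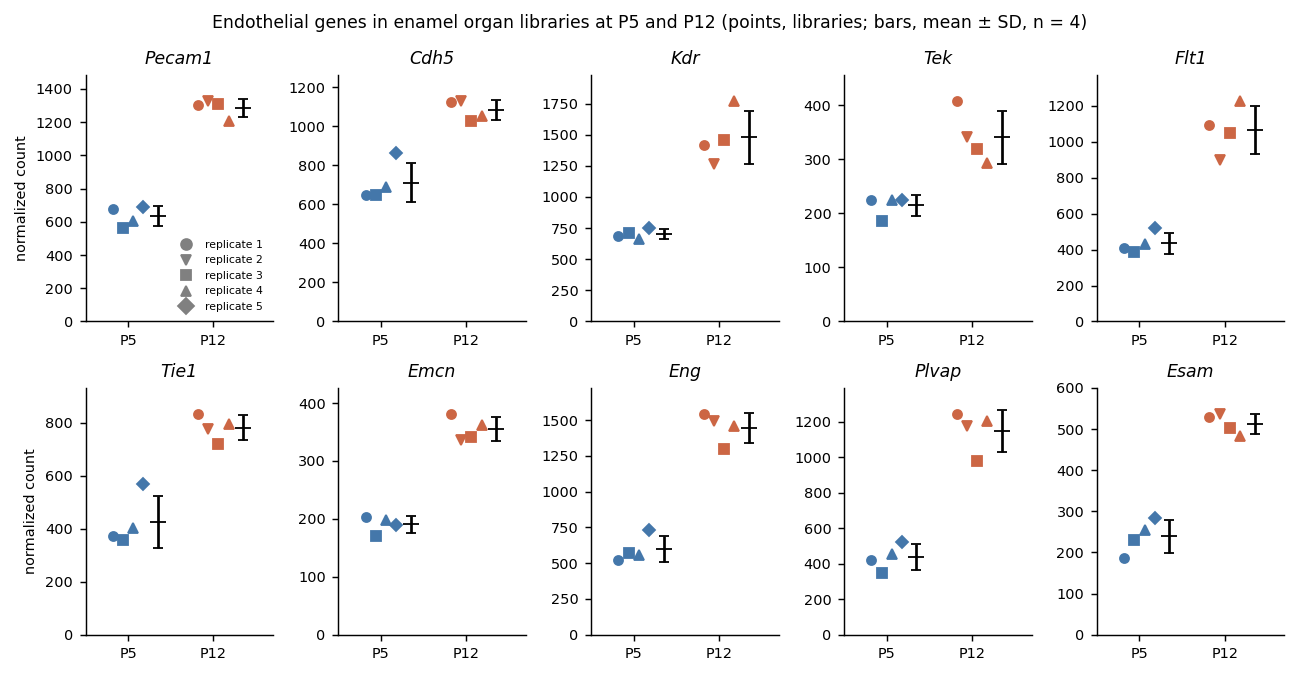
Normalized count (vertical axis, from 0) of each of the 10 endothelial genes in the P5 libraries (blue) and P12 libraries (orange), one symbol per replicate number, with mean ± SD (n = 4 pools) in black. In every panel the P12 points lie above all P5 points, with the smallest difference in normalized counts in Tek, between the highest P5 library at 225 and the lowest P12 library at 293. Relative to its level, the gap was narrower in Cdh5, between 861 and 1029.

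Markers of other cells in the pools also moved between the ages. Their counts stand beside 28.8% of all tested genes called higher and 28.4% called lower. Leukocytes and platelets also transcribe Pecam1 or Esam. Of 10 of their marker genes, 9 were tested, 5 were higher and none was lower. Their summed level was 938 to 1385 normalized counts at P5 and 1545 to 2022 at P12, and the T cell gene Cd3e was at or near 0 throughout. The 5 erythroid genes were between 18758 and 36558 in sum at P5 and between 17987 and 21593 at P12, with 2 lower and none higher (between 1 and 4 lower when P5 replicate 1, 3 or 5 or P12 replicate 2 was left out). The 4 keratins of oral mucosa were all higher, with sums of 793 to 1563 at P5 and 11320 to 57360 at P12. Of 8 mesenchyme genes, 2 were higher and 4 lower (2 lower without P5 replicate 3 or P12 replicate 3), with sums of 1026085 to 1220872 at P5 and 893663 to 1159563 at P12. Among them Dspp, a gene of odontoblasts, was at 158556 ± 23095 at P5 and 167051 ± 12929 at P12 (SD, n = 4), although the pulp had been cleared away. Most of the mesenchyme sum came from Dspp, Col1a1 (means of 620261 and 488824) and Col1a2 (357161 and 278602). It therefore hides genes that moved either way. Col3a1 rose from 4414 ± 235 to 54909 ± 25880 and Lum from 2765 ± 574 to 8011 ± 1833, while Pdgfra fell from 4412 ± 294 to 2217 ± 192 (SD, n = 4). The 8 genes of the enamel epithelium fell in sum from between 5013443 and 5651231 at P5 to between 742552 and 1207310 at P12, with 4 genes higher and 4 lower. With both doubted libraries left out, the counts of higher and lower genes were 5 and 0 for leukocytes and platelets, 0 and 4 for erythroid genes, 4 and 0 for the keratins, 2 and 3 for mesenchyme and 4 and 4 for the enamel epithelium. The part of these cells in the endothelial result was not tested.

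The VEGF receptors were higher at P12 together with their main ligand. Kdr (ENSMUSG00000062960, chromosome 5 of GRCm38, 75932827 to 75978458 on the reverse strand) encodes VEGFR2, the receptor that carries most of the VEGF signal in endothelium. Its normalized counts were 688, 708, 666 and 755 in P5 replicates 1, 3, 4 and 5, and 1419, 1263, 1461 and 1771 in P12 replicates 1 to 4. The P5 libraries lay close together, and P12 replicate 4 was the highest. It rose by 1.07 on the log2 scale (standard error, SE, 0.10, adjusted p = 3.5e-06 edgeR).

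Flt1 (ENSMUSG00000029648, chromosome 5, 147561604 to 147726011 on the reverse strand) encodes VEGFR1, which binds VEGF-A tightly and signals little, and which is also made as a soluble form that gene counts do not separate. It was at 409, 386, 432 and 519 at P5 and at 1095, 901, 1047 and 1228 at P12. The order of the P12 libraries was like that of Kdr at both ends, with replicate 4 highest and replicate 2 lowest. Its log2 fold change was 1.29 (SE 0.11, adjusted p = 2.5e-06 edgeR).

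Of the 8 VEGF and angiopoietin ligand genes, 7 were tested, 4 were higher and 2 were lower, against 28.8% and 28.4% of all tested genes. Vegfa, the chief ligand of both receptors, which ameloblasts and other epithelia make, was at 2220.2, 2457, 2124 and 2455 at P5 and at 3569.8, 3541, 4558 and 4893 at P12, with a log2 fold change of 0.84 (SE 0.11, adjusted p = 6.4e-05). Replicates 3 and 4 were the highest P12 libraries for Vegfa and for Kdr, but for Flt1 they were replicates 4 and 1 (1228 and 1095). Replicate 4 was the highest P12 library for 33.4% of all tested genes. Vegfb, a ligand of VEGFR1 alone, fell from 423 ± 36.2 (SD, n = 4 pools) to 310.3 ± 41.2 (log2 fold change -0.45, adjusted p = 0.0036), and this call was lost under total count scaling (log2 fold change -0.08, adjusted p = 0.49, edgeR). Pgf, the other ligand of VEGFR1, was at 39.4 ± 12.2 and 58.1 ± 17.2 (SD, n = 4) with overlapping libraries (adjusted p = 0.11, edgeR). Vegfc, a ligand of VEGFR3, rose from 31.7 ± 7.30 to 75.2 ± 9.32 (SD, n = 4). Vegfd was below the filter, at 2.12 to 10.3 at P5 and 8.34 to 20.5 at P12.

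The co-receptors differed from each other. Nrp2 rose from 1009 ± 91.6 to 3557 ± 388 normalized counts (SD, n = 4), which is 1.82 on the log2 scale (SE 0.09, adjusted p = 4.4e-08, edgeR). Nrp1, the neuropilin that pairs with VEGFR2, was at 605 ± 21.2 and 655 ± 86.2 (SD, n = 4), and its libraries overlapped (log2 fold change 0.11, adjusted p = 0.31, edgeR), although total count scaling called it higher (0.48). Flt4, which encodes VEGFR3 and is found on lymphatic vessels and fenestrated capillaries, rose from 121 ± 28.7 to 247 ± 26.0 (SD, n = 4), or by 1.03 on the log2 scale.

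Both TIE receptors also rose, with smaller fold changes than the VEGF receptors, although that difference was not tested. Tek (ENSMUSG00000006386, chromosome 4, 94739289 to 94874976 on the forward strand), the receptor of the angiopoietins, was at 224, 186, 224 and 225 at P5 and at 408, 342, 319.7 and 293 at P12. Its P12 libraries were widely spread, from replicate 1 at the top to replicate 4 at the bottom, the reverse of Kdr in replicate 4. The log2 fold change was 0.67 (SE 0.12, adjusted p = 5.6e-04 edgeR).

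Tie1 (ENSMUSG00000033191, chromosome 4, 118471191 to 118490061 on the reverse strand) has no well-defined ligand and forms complexes with TIE2. It was at 374, 359, 401 and 568 at P5 and at 831, 776, 719 and 796 at P12. P5 replicate 5 was well above the other P5 libraries and below every P12 library. The log2 fold change was 0.87 (SE 0.13, adjusted p = 1.7e-04 edgeR), and 1.04 without P5 replicate 5.

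The angiopoietins moved in opposite directions. Angpt1, the agonist of TIE2 that mural and mesenchymal cells make, was at 554, 585, 646 and 674 at P5 and at 235, 237, 250.2 and 276 at P12, a log2 fold change of -1.30 (SE 0.09, adjusted p = 3.8e-07, edgeR). Angpt2, which endothelial cells make and which competes with it, was low in counts, at 17.998, 22.4, 26.4 and 20.1 at P5 and at 82.1, 80.2, 88.0 and 53.2 at P12, a log2 fold change of 1.81 (SE 0.23, adjusted p = 5.4e-05, edgeR). Neither gene overlapped between the ages. Angpt4, a further ligand of TIE2, rose from 30.2 ± 6.74 to 114 ± 49.3 (SD, n = 4) and Angptl1, a related secreted protein, from 34.0 ± 16.5 to 143 ± 33.8. Of the exonic bases of Angpt1, 14.2% lie in exons of the antisense gene Gm17473, and 16.4% of those of Angptl1 lie in exons of Gm37802. Ptprb encodes VE-PTP, the endothelial phosphatase that acts on TIE2 and VE-cadherin, and it had the largest log2 fold change of the 14 partner genes, 2.26 (SE 0.10, adjusted p = 1.1e-08, edgeR), from 566, 432, 423 and 472 to 2429, 2126, 2361 and 2128.

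Promoter sequences from RefSeq (GRCm38.p6, from 250 bases before to 50 bases after the annotated start) were on hand for 6 of the 10 genes, Kdr, Flt1, Tek, Tie1, Eng and Emcn, and not used here for Pecam1, Cdh5, Plvap and Esam. The windows of both receptor pairs are shown. All 10 genes rose, so the rise does not set these pairs apart from Eng and Emcn. They are written 5′ to 3′ on the gene's strand, and capitals mark GGAAG, the core bound by ETS family factors such as ERG and FLI1, or its reverse complement CTTCC.
Kdr promoter, chr5:75978406-75978705, reverse strand: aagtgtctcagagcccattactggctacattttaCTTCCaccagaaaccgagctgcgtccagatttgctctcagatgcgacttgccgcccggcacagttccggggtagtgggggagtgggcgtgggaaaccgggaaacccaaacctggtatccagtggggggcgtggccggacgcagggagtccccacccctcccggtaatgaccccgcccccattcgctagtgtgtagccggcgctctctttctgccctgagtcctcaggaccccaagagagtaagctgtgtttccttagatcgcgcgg
Flt1 promoter, chr5:147725962-147726261, reverse strand: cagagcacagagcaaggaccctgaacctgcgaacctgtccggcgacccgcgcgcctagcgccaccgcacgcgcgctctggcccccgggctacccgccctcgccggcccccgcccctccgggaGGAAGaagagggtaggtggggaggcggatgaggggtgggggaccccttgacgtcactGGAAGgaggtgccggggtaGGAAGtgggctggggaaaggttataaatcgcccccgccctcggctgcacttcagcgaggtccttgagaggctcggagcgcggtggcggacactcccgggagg
Tek promoter, chr4:94739039-94739338, forward strand: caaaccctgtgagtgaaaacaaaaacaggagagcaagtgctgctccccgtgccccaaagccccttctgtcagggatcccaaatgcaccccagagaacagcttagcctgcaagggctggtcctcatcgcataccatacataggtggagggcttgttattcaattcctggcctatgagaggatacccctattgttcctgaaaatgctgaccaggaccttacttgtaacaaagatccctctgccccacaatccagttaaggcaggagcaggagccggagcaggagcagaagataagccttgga
Tie1 promoter, chr4:118489800-118490099, reverse strand: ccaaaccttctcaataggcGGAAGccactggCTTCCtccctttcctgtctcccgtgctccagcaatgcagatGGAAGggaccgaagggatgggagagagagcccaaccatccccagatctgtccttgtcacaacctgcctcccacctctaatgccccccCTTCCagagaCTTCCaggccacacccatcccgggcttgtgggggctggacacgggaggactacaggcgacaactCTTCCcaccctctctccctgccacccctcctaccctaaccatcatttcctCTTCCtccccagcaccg
The core occurred 1 time in the Kdr window, 3 times in that of Flt1, 7 times in that of Tie1 and 0 times in that of Tek, while the median over all promoter windows was 1 and 16.5% of them held at least 3. It was present in 5 of the 6 windows, against 71.4% of 32851 promoter windows of the same length. The longer form CCGGAAGT was in 0 of the 6 and in 3.89% of all windows. The Tie1 start used by RefSeq lies 212 bases from the gene end of the count table. Further motifs were searched on both strands. The SOX core AACAAT was found in the windows of Emcn and Tek and in 10.7% of all windows. The GATA core AGATAA was found in that of Tek and in 11.2% of all windows. The TATA box, as TATAAA, was found in that of Flt1 and in 13.6% of all windows. The E-box CACGTG was found in 0 of the 6 windows and in 7.15% of all. The ETS factor genes themselves were at 113 ± 13.6 and 197 ± 7.13 normalized counts (SD, n = 4) for Erg at P5 and P12, which rose, and at 134 ± 27.1 and 175 ± 37.4 for Fli1 (adjusted p = 0.095, edgeR).

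The junction genes rose by unequal amounts. Cdh5 (ENSMUSG00000031871, chromosome 8, 104101625 to 104144511 on the forward strand), the adhesion protein of endothelial adherens junctions, was at 647, 649.5, 689 and 861 at P5 and at 1122, 1129, 1029 and 1051 at P12. P5 replicate 5 was above the other P5 libraries, and the P12 libraries were close to each other. With a log2 fold change of 0.60 (SE 0.09, adjusted p = 2.0e-04 edgeR) it rose the least of the 10.

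Pecam1 (ENSMUSG00000020717, chromosome 11, 106654217 to 106750628 on the reverse strand), an immunoglobulin-like adhesion protein at endothelial borders, also found on platelets and leukocytes, was at 675, 565, 602 and 691 at P5 and at 1301, 1327, 1307 and 1209 at P12. The P12 libraries were within a narrow band, and the log2 fold change was 1.02 (SE 0.08, adjusted p = 7.0e-07, edgeR). Esam (ENSMUSG00000001946, chromosome 9, 37528078 to 37538319 on the forward strand), a tight junction adhesion protein of endothelium and platelets, was at 188, 230.3, 256 and 284 at P5 and at 529, 536, 502 and 483 at P12. Its log2 fold change was 1.10 (SE 0.11, adjusted p = 1.0e-05, edgeR). The cytoplasmic partners of VE-cadherin are shared with epithelial junctions. Jup, plakoglobin, rose from 2360.4 ± 95.8 to 9296 ± 1023 (SD, n = 4), and Ctnnd1, p120-catenin, from 702 ± 20.2 to 823 ± 30.5, although 61.2% of the exonic bases of Ctnnd1 also lie in Gm28635 on the same strand. Ptpn11, the phosphatase SHP2 that binds PECAM-1, fell from 3745 ± 161 to 2945 ± 53.9 (log2 fold change -0.35, adjusted p = 3.2e-04, edgeR), with 0.03 under total count scaling.

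Per kilobase of exon, Plvap and Eng had the highest levels of the 10 at P12. Eng (ENSMUSG00000026814, chromosome 2, 32646595 to 32682669 on the forward strand), the co-receptor that presents BMP ligands to the kinase ALK1, was at 526, 574, 559 and 731 at P5 and at 1540.4, 1492, 1298 and 1458 at P12. Its log2 fold change was 1.27 (SE 0.10, adjusted p = 1.3e-06, edgeR). Acvrl1, which encodes ALK1, rose from 134 ± 30.1 to 269 ± 51.6 (SD, n = 4), or by 1.01 on the log2 scale. The receptors of this pathway that most cell types carry gave other values. Bmpr2 was at 3605 ± 53.6 and 3502 ± 517 (SD, n = 4, adjusted p = 0.72, edgeR), with a call of lower without P12 replicate 4 (log2 fold change -0.15, adjusted p = 0.043), and Tgfbr2 fell from 7394 ± 402 to 3407 ± 308, a log2 fold change of -1.12 (adjusted p = 4.5e-07, edgeR).

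Plvap (ENSMUSG00000034845, chromosome 8, 71497765 to 71511752 on the reverse strand) was at 419, 349, 457 and 522 at P5 and at 1243, 1177, 978 and 1205 at P12. All P12 libraries were well above all P5 libraries, and its log2 fold change, 1.40 (SE 0.12, adjusted p = 2.1e-06, edgeR), was the highest of the 10. Emcn (ENSMUSG00000054690, chromosome 3, 137341067 to 137432185 on the forward strand) was at 203, 171, 198 and 189 at P5 and at 381, 336, 341 and 362 at P12, a log2 fold change of 0.90 (SE 0.09, adjusted p = 8.6e-06, edgeR). Multimerin 2 (Mmrn2) and its endothelial binding partners Clec14a and Cd93 also rose, with log2 fold changes of 1.09, 1.03 and 0.85. In all, 10 of the 14 partner genes were higher and 2 were lower, against 28.8% and 28.4% of all tested genes.

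A ratio of counts within a library does not depend on how libraries are scaled, so each gene was also set against Cdh5, and the receptors of each pair against each other. Of the 11 log2 ratios, 8 differed between the ages with no overlap of libraries (exact permutation test, two-sided p = 0.0286, or 0.0393 after Benjamini-Hochberg adjustment over the 11). Of the 11, 9 share Cdh5, which rose the least of the 10, as the denominator, so they are not separate results. Against Cdh5, 7 of the 9 were higher at P12 in every library, which held for 7.71% of all other tested genes and for 6.89% of those within the range of the 10. Plvap to Cdh5 moved most, from -0.71 ± 0.14 to 0.08 ± 0.12 (SD, n = 4). The counts in these ratios are not divided by gene length, so the sign of a ratio does not rank the genes. Per kilobase of exon, mean Plvap was above mean Cdh5 at both ages (220 against 169 at P5, 579 against 258 at P12). Flt1 to Cdh5 went from -0.70 ± 0.04 to -0.03 ± 0.23 and Eng to Cdh5 from -0.25 ± 0.06 to 0.42 ± 0.06. The differences were smaller for Esam (0.50), Kdr (0.45), Pecam1 (0.41) and Tie1 (0.28) to Cdh5, and for Flt1 to Kdr, from -0.70 ± 0.15 to -0.47 ± 0.07. Tek to Cdh5 was at -1.72 ± 0.18 and -1.68 ± 0.16 (SD, n = 4; exact permutation test, two-sided p = 0.743). Emcn to Cdh5 differed by 0.28 and Tie1 to Tek by 0.24, both with overlapping libraries (adjusted p = 0.0698 and 0.189 from the exact permutation test).

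**Figure D2:**
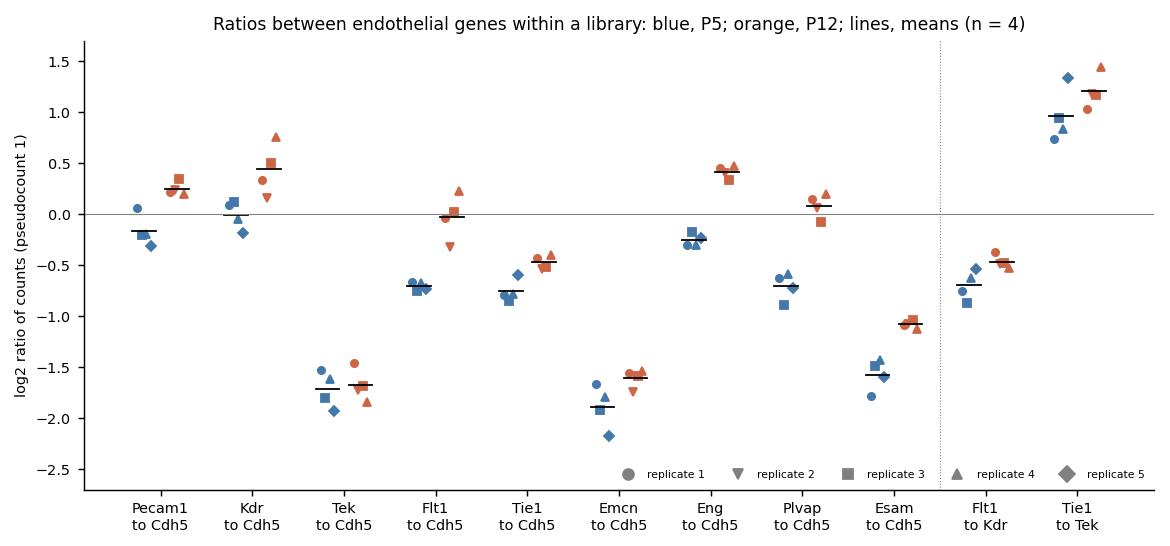
Log2 ratio of the counts of each named pair (vertical axis, pseudocount 1) in each P5 library (blue) and P12 library (orange), with symbols for replicate numbers and lines for means (n = 4). The ages separate for Pecam1, Kdr, Flt1, Tie1, Eng, Plvap and Esam to Cdh5 and for Flt1 to Kdr, and overlap for Tek to Cdh5, Emcn to Cdh5 and Tie1 to Tek.

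Levels between genes were compared as normalized counts per kilobase of exon. At P5 the order was Plvap (219.8 ± 36.4, SD, n = 4), Cdh5 (169 ± 24.1), Eng (148 ± 22.6), Pecam1 (102 ± 9.61), Tie1 (86.5 ± 19.7), Esam (83.5 ± 14.2), Kdr (78.0 ± 4.198), Tek (45.6 ± 4.12), Emcn (35.2 ± 2.59) and Flt1 (32.3 ± 4.30). Neighbours in this order overlapped between libraries except Eng and Pecam1, Kdr and Tek, and Tek and Emcn. At P12 the order was Plvap (579 ± 59.7), Eng (357 ± 25.9), Cdh5 (258 ± 11.97), Pecam1 (206 ± 8.44), Esam (179 ± 8.503), Kdr (164 ± 23.6), Tie1 (159 ± 9.56), Flt1 (79.1 ± 9.99), Tek (72.3 ± 10.4) and Emcn (65.6 ± 3.80). The first 4 steps of the P12 order, from Plvap to Esam, had no overlap between neighbours, nor had Tie1 and Flt1. Eng passed Cdh5 between the ages and Flt1 moved from last place to above Tek and Emcn, although without P12 replicate 4 Flt1 was in place 9.

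Within an age, the summed level of the 10 genes ranged over 4176 to 5345 normalized counts at P5 and 9001 to 9868 at P12. The mean deviation of the 10 genes from their age means, on the log2 scale, was -0.07, -0.14, -0.0014 and 0.21 in P5 replicates 1, 3, 4 and 5, and 0.08, -0.03, -0.07 and 0.02 in P12 replicates 1 to 4. P5 replicate 5 was the highest P5 library for 9 of the 10 genes, all but Emcn, while it was the highest for 31.8% of all tested genes. At P12 the genes did not share an order. Replicate 1 was highest for Tek, Tie1, Emcn, Eng and Plvap, replicate 2 for Pecam1, Cdh5 and Esam, and replicate 4 for Kdr and Flt1. Tie1 followed the mean of the other 9 most closely over the 8 libraries (Pearson r = 0.97 of deviations from the age means) and Kdr least (r = 0.16).

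**Figure D3:**
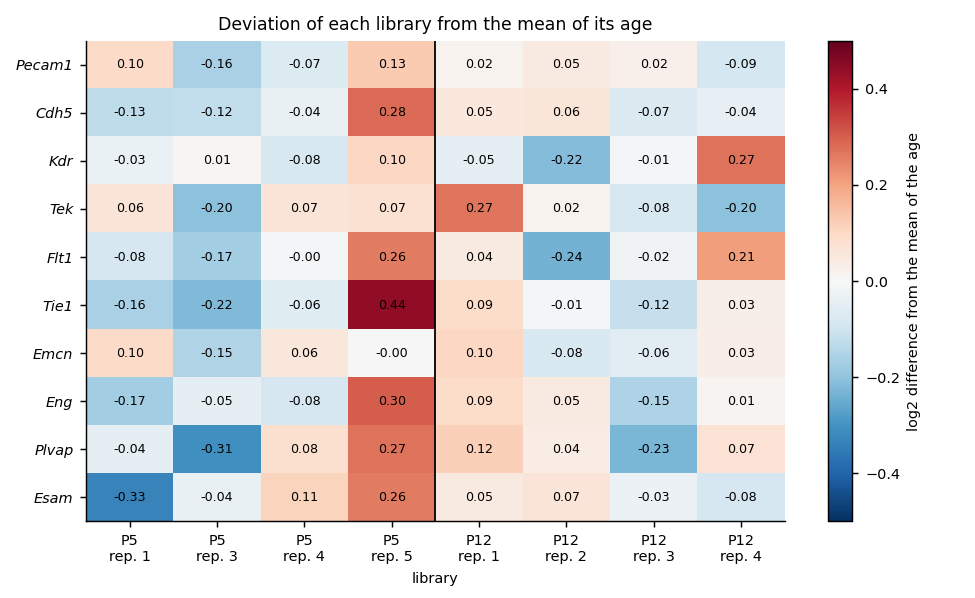
Difference of each library from the mean of its age, in log2 normalized counts (color and printed value), for the 10 endothelial genes (rows) and 8 libraries (columns, P5 left of the line). The column of P5 replicate 5 is above the mean for 9 of the genes, and at P12 Kdr and Flt1 are highest and Tek is lowest in replicate 4.

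Among 11335 other genes with a mean normalized count of at least 100, the one whose deviations were most like the mean of the 10 was Aplnr, the apelin receptor of endothelium (r = 0.99 over 8 libraries, which share the scaling and the distance of P5 replicate 5). It was followed by Helz2 (r = 0.98), Vwf, von Willebrand factor (0.98), Zfp710 (0.98), Sec16a (0.97), Ppp4c (0.97), Itm2c (0.96), Zfp646 (0.96), Pdia3 (0.96) and Mars (0.96). Endothelial genes as a list were not all alike in this way: over 18 further blood endothelial genes at that level the median r was 0.49, from -0.37 (Tal1) to 0.98 (Vwf), with values below 0 for Ecscr, Fli1 and Mcam too, and the median over all compared genes was 0.01. Aplnr rose from 521 ± 89.5 to 1095 ± 89.9 (SD, n = 4) and Vwf from 341 ± 90.9 to 643 ± 52.0, and Helz2 was also called higher. Zfp710, Sec16a, Ppp4c, Itm2c and Pdia3 were called lower at P12, and Zfp646 and Mars were not called.

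The other vascular genes mostly moved with the 10, but not all endothelial genes did. The counts in this and the next paragraph stand beside 28.8% of all tested genes called higher and 28.4% called lower. Of 20 further blood endothelial genes, 12 were higher at P12, 1 was lower (2 without P12 replicate 4) and 7 were neither, with a median log2 fold change of 0.71. Robo4 and Icam2, surface proteins of endothelium, rose by 1.03 and 1.10 on the log2 scale. Sox13, a transcription factor that other tissues also express, fell by 1.23. Cldn5, the claudin of endothelial tight junctions, was at 158 ± 33.6 and 164 ± 13.7 (SD, n = 4, adjusted p = 0.78, edgeR). Ramp2, a subunit of the adrenomedullin receptor, was at 249.7 ± 48.8 and 248 ± 10.6 (adjusted p = 0.95), with 33.4% of its exonic bases shared with Vps25. Mcam was at 1468 ± 95.1 and 1336 ± 134 (adjusted p = 0.16). Under total count scaling 19 of the 20 were called higher, a call that 54.0% of all tested genes then received (14.2% were called lower), so that the calls of this list depend on the scaling, which shifted the median over all tested genes from 0.01 to 0.38 (log2).

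Of 9 tested genes of capillary specialisation, 7 were higher and none was lower. These 7 include the glucose transporter gene Slc2a1, which is also on the list of low oxygen genes below. It rose from 1176 ± 93.9 to 2800 ± 302 (SD, n = 4), while the mean sum of the capillary list rose from 2408 to 5396. Esm1, a marker of endothelial tip cells, rose from 38.0 ± 11.3 to 151 ± 26.8 (SD, n = 4) and Lpl, lipoprotein lipase, which adipocytes and other cells make for the capillary wall, from 145 ± 22.02 to 593 ± 218. Of 14 arterial and venous genes, 5 were higher (35.7%, near the 28.8% of all tested genes), 3 were lower and 6 were neither. The connexin gene Gja4 (log2 fold change 1.34) and the receptor gene Notch4 (0.78), which are found in arterial and other endothelium, were higher. Ephb4 (0.23), Selp (2.45) and Sele (1.89) were the remaining higher genes. Selp and Sele were low in counts, at 7.42 ± 5.81 and 12.1 ± 1.69 at P5 and 42.0 ± 8.48 and 45.0 ± 13.5 at P12 (SD, n = 4). Nr2f2, a transcription factor of veins and of mesenchyme, fell by 1.79 and Efnb2, the arterial ephrin that epithelia also express, fell by 1.31. Dll4, a Notch ligand of tip and arterial cells, was at 301 ± 24.9 and 278 ± 7.03 (SD, n = 4, adjusted p = 0.28, edgeR). Of 12 genes of mural cells, the pericytes and smooth muscle around vessels, 8 were higher and none was lower (1 lower without P12 replicate 4). These 12 include Mcam, which is also on the blood endothelial list, and Pdgfb, the growth factor by which endothelium recruits pericytes, which is 1 of the 8 (log2 fold change 1.25). Pdgfrb, the PDGF receptor of pericytes, rose from 338 ± 24.5 to 1314 ± 241 (SD, n = 4) and Cspg4, the proteoglycan NG2, from 666 ± 114 to 2371 ± 286. Pdgfrb and Cspg4 are also found in mesenchyme, whose 8 genes moved both ways, with 2 higher and 4 lower. Pdgfra, which marks mesenchyme, fell by 0.99 and Dcn by 0.49 on the log2 scale, while Col3a1 rose by 3.64 and Lum by 1.54. The part of mesenchyme in the rise of Pdgfrb and Cspg4 was not tested. Over the 77 genes of these vascular lists and the ligand and partner lists, counted once each, 75 were tested, 46 were higher and 8 lower. Without P5 replicate 5 and P12 replicate 4 these counts were 51 and 10, and over all 16667 genes tested there they were 4921 and 4855. By list, the counts of higher and lower genes were then 4 and 2 for ligands, 10 and 3 for partners, 13 and 2 for further blood endothelial genes, 8 and 0 for capillary genes, 7 and 3 for arterial and venous genes and 9 and 1 for mural genes.

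**Figure D4:**
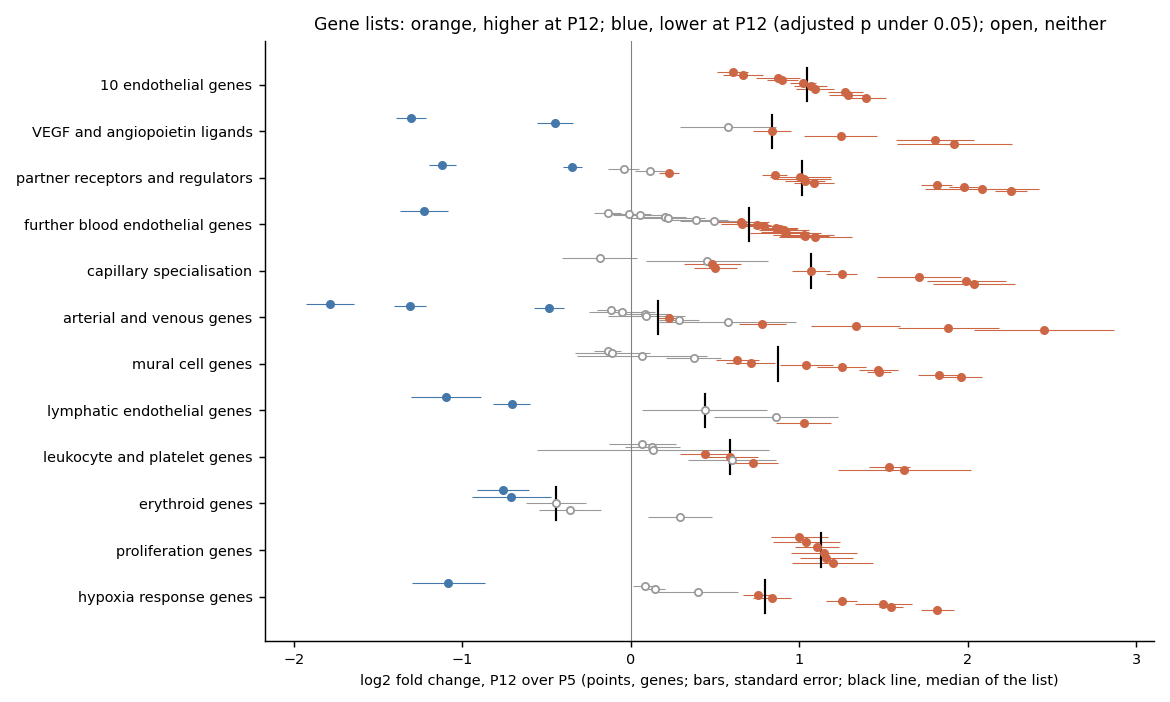
Log2 fold change between P12 and P5 (horizontal axis, with standard error) of every tested gene in the endothelial, signalling, mural, lymphatic, blood, proliferation and hypoxia lists (rows), with the list's median as a black line. Filled orange points are genes called higher at P12, filled blue points genes called lower and open points neither (edgeR, adjusted p under 0.05), and the 10 endothelial genes lie between 0.60 and 1.40.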

How the data were processed

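PolyA RNA of first molar enamel organs at P5 and P12 was sequenced, with 5 pups pooled per library. The authors deposited raw read counts per gene as whole numbers, beside each gene's name, position and length. Aligner, read counter and use of strand are not given in the sources used here. The submitters' processing notes name CASAVA and mm39, while the coordinates of the 10 genes are those of GENCODE M21 on GRCm38. Columns were matched to libraries by title. The ages were compared in edgeR 4.0.16 under R 4.3.3, by glmQLFit and glmQLFTest on genes kept by filterByExpr and scaled by TMM, without covariates. P-values of the 16440 genes were adjusted by Benjamini-Hochberg, with a threshold of 0.05. Normalized counts were scaled to the mean effective library size, 19006280. DESeq2 1.42.0, which the study's methods name, and limma-voom 3.58.1 were alternatives, beside other scalings, filters, thresholds, each library left out and the replicate number as a block. Fits were tested on simulated data. Single genes and ratios were compared by two-sided exact permutation tests over 70 splits (scipy 1.17.1, pseudocount 1).

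The 10 genes and the lists were chosen with earlier results of these data known. Named genes are the 10, the ligand and partner lists, the 2 largest rises and falls of every other list among called genes whose mean was at least 50 normalized counts, and the 10 genes most alike over libraries. Erg, Fli1, Cldn5, Ramp2, Mcam, Dll4, Ephb4, Selp, Sele, Cd3e, Car9, Vhl, Egln1, Egln3, Adm, Slc2a1, Bnip3, Pdgfb, Tal1, Ecscr, Prox1, Lyve1, Ccl21a, Col1a1, Col1a2 and Dspp lie outside that rule and were chosen after their values were seen. Nothing says whether pools were separate litters, so p-values measure the spread between pools. Protein sequences were not used here.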

Additional observations from a re-analysis of the deposited data

Results flagged for a closer look

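For 62 genes, each examined at both ages (124 cases), 6 cases had 1 distant library. Chance picks out about 1 in 20, here 6.2. Tek, the only one of the 10 endothelial genes among them, was at 186 normalized counts in P5 replicate 3 against 224 to 225 in the other P5 libraries. Flt4 was at 208 in P12 replicate 3 (259 to 263 in the others) and Sox13 at 377 in the same library (394 to 397). In P5 replicate 1, Reln was at 100.3 (182 to 197) and Cd68 at 132 (95.3 to 99.5). Epas1 was at 1881 in P5 replicate 5 (1524 to 1566).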

How the results depend on the processing

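All 10 endothelial genes were called higher in each of the 18 other fits across all genes and at an adjusted p under 0.01, and 6 of them also passed a log2 fold change of at least 1 (11.3% of all tested genes). Cdh5 and Plvap, with the smallest and largest log2 fold changes, ranged from 0.56 to 0.70 and from 1.30 to 1.49 when single libraries were left out. Total count scaling raised them to between 0.98 and 1.77. Over the 77 other vascular genes, 28 were higher and 5 lower with a log2 fold change of at least 1 (11.3% and 10.2% of all tested genes), and total count scaling gave 60 and 5, where 54.0% of all tested genes were called higher and 14.2% lower. The log2 fold change of Bmpr2, -0.04 as reported, was 0.33 under total count scaling and, when single libraries were left out, between -0.15 and 0.017, with -0.16 without P5 replicate 5 and P12 replicate 4. That of Ptpn11, -0.35 as reported, was 0.027 under total count scaling. The cause was not tested. Leaving out single libraries or pairing them by number moved each of the 11 ratios by less than 1 SD, and a pseudocount of 0.5 and counts per kilobase changed no call among them. A pair of libraries with the same number at both ages did not deviate together (r = 0.04, 0.01 and -0.04 for numbers 1, 3 and 4). With the replicate number as a block over these 6 libraries, 10 of the 10 genes were higher. The vascular genes then gave 47 higher and 8 lower. Both results were as without the block. Over all 16399 genes tested there, 3867 were higher and 3843 lower with the block, and 4076 and 4041 without it. The fit without P5 replicate 5 and P12 replicate 4 was added after the data were seen. Depth limits Vegfd, Car4 and Cd3e, which were too low to test.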

Other observations

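Genes of the response to low oxygen were partly higher in the same libraries. Of 10 genes of this list, which holds Vegfa itself, 6 were higher at P12 and 1 was lower. Over all tested genes these shares were 28.8% and 28.4%. The counts of the list were the same without P5 replicate 5 and P12 replicate 4. Beside Vegfa, the higher genes were Hif1a, Epas1, Adm, Slc2a1 and Bnip3. Hif1a rose from 2751 ± 164 to 8031 ± 519.9 normalized counts (SD, n = 4) and Epas1, which encodes HIF-2 alpha and is strong in endothelium, from 1628 ± 169 to 5753 ± 617, whereas Car9, a target of HIF-1, fell by 1.08 on the log2 scale. Vhl and the prolyl hydroxylase genes Egln1 and Egln3 were not called (log2 fold changes of 0.14, 0.08 and 0.40).

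Lymphatic genes gave no common direction. Of 5 tested, Flt4 was higher (2 genes without P12 replicate 4) and Pdpn and Reln were lower, against 28.8% and 28.4% of all tested genes. Prox1 and Lyve1 were not called, with log2 fold changes of 0.44 and 0.86 (adjusted p = 0.33 and 0.065, edgeR). Both were low in counts. Prox1, the transcription factor that defines lymphatic endothelium, had 7.91 to 26.8 normalized counts at P5 and 17.1 to 27.8 at P12. Lyve1 had 6.43 to 20.1 at P5 and 16.1 to 33.7 at P12. Without P5 replicate 5 and P12 replicate 4, 1 lymphatic gene was higher and 2 were lower, where 4921 of all 16667 tested genes were higher and 4855 lower. Ccl21a had 0 counts in all libraries. All 6 proliferation genes were higher at P12, also without these libraries, against 28.8% of all tested genes with all libraries. Their median log2 fold change was 1.13, and bulk libraries do not show in which cells.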
